A study of Mus musculus with 4 samples.

Results

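The 10 genes described here, Slc17a8, Otof, Cabp2, Dnajc5b, Cacna1d, Cacnb2, Bsn, Pclo, Ctbp2 and Rimbp2, code for proteins of the ribbon synapse of inner hair cells (IHCs). The genes were chosen with earlier results of these data known, and the paper lists Slc17a8 and Cabp2 as lowered in these arrays. Their probes were found by name alone: every probe that is not a control and whose listed gene name is one of these 10 was taken, whatever its signal. The 10 genes have 18 probes, out of 39429 probes with 29924 gene names on the array.

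RNA of the basal part of the mouse organ of Corti was hybridized on 4 dual-colour arrays, each with a Sox2-Tbx2LOF pool in one dye and a sex-matched control pool in the other. By the methods, the spiral ganglia and the spiral ligament were removed from this tissue before it was collected. Pools were female on arrays 1 and 2 and male on arrays 3 and 4. Cy3 labelled the Sox2-Tbx2LOF pools of arrays 1 and 3, and Cy5 those of arrays 2 and 4. Embryos were NMRI mice of both genotypes whose dams had received 4 mg of tamoxifen at E16.5, and tissue was taken at E18.5 (embryonic days). Sox2-Tbx2LOF embryos were Sox2(creERT2);Tbx2(fl/fl), so that tamoxifen removes the T-box factor gene Tbx2 from cells that express the Cre from the Sox2 locus, which at this stage include the hair and supporting cells. By the cross given in the methods they also carried 1 copy of the R26 mTmG Cre reporter. Littermates without Cre from that cross carry 1 copy as well, and whether all control embryos came from it is not given. Controls carried no Cre, received the same tamoxifen and are labelled Tbx2(fl/n.d.), with the state of the second allele not given. The methods add progesterone for all dams of this stage, and each pool combined several embryos, so that the spread between arrays is a spread between pools and not between animals.

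IHCs are the sensory receptors that pass sound information to the auditory nerve, and they do so by releasing glutamate continuously and in grades rather than in all-or-none spikes. At each release site a dense body, the ribbon, holds synaptic vesicles next to voltage-gated calcium channels. Vesicles are filled with glutamate by a transporter, fuse when calcium enters, and are held in place by large scaffold proteins that IHCs share with neurons. Many of the parts are therefore also made by neurons, while others, such as VGLUT3 and otoferlin, mark hair cells within the cochlea.

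The probes are 60-base oligonucleotides, and what each gene's value means depends on which stretch of the transcript its probe covers. Stretches of 30 bases are shown for the 6 probes of the 4 genes whose values were lower in Sox2-Tbx2LOF pools, since the results turn on these and 2 of the genes were read by 2 probes each. They are given as the array files list them, 5′ to 3′, as the first 30 bases of the probe or, where the probe holds the polyadenylation signal AATAAA, as bases 29 to 58 with the signal in capitals.
Cabp2 A_51_P187625: gatggcctggttgactttgaagaatttgtt
Slc17a8 A_51_P210350: ttggattttcccataccaaaggagtggcta
Slc17a8 A_52_P163021: ctttcttggaaagtatggtcagatgatata
Otof A_66_P137297: tacacttaaagcggtgcccttctgcctctg
Dnajc5b A_55_P2041966: ttggttcagccatgtctctgggtggtcatc
Dnajc5b A_55_P2172329: ttcagtttgatgAATAAAggcctgaagagt
The Cabp2 probe starts at base 659 of its transcript and spans 575 bases of genome at chr19:4086574-4087148 (build mm9, plus strand), so it joins 2 exons and reports spliced RNA. The Slc17a8 probes start 1919 bases apart in one transcript, at bases 1608 and 3527, at chr10:89046159-89046218 and chr10:89037630-89037689 (mm9, minus strand). Both Dnajc5b probes start 129 bases apart, at bases 766 and 895 of the transcript, at chr3:19510673-19510732 and chr3:19510802-19510861 (mm9, plus strand). Otof has 1 probe, which starts at base 7015 of the transcript, at chr5:30669401-30669460 (mm9, minus strand). Of the 18 member probes, 3 hold AATAAA, namely the second Dnajc5b probe and 2 of the Pclo probes, against 12.6% of all 39429 probes.

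Levels below are channel intensities on the log2 scale after normalization, and a log2 ratio is Sox2-Tbx2LOF over control within one array. Testing required signal well above background in either genotype on at least 3 arrays, and a probe was called where the adjusted p of limma was under 0.05 and the difference was at least 1.5-fold. Of the 18 probes, 16 probes of 9 genes were tested. Since the genes were chosen with earlier results known, the shares of all tested probes below give scale and do not test the set. Called lower were 3 probes of 3 genes, Cabp2, Dnajc5b and Slc17a8, where 0.128% of all 28079 tested probes were called lower. No member probe was called higher, where 0.121% of all tested probes were. With the minimum fold left out, 5 member probes of 4 genes passed as lower, Otof being the fourth gene, against 0.538% of all tested probes, and 0 member probes passed as higher, against 0.449%. At an unadjusted limma p under 0.05, 6 member probes were lower and 0 higher, and no share of all tested probes was computed for that threshold. The 4 Sox2-Tbx2LOF levels all lay below the 4 control levels at 5 member probes of 3 genes, against 1.32% of all tested probes. At 0 member probes did they all lie above, against 1.2% of all tested probes. Over all 16 tested member probes, 8 mean log2 ratios lay below 0 and 8 above, with a median of −0.00049, where that of all tested probes was 0.0024. Of the 10 tested probes of Cacna1d, Cacnb2, Bsn, Pclo and Ctbp2, 2 lay below 0 and 8 above, and none passed.

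**Figure D1:**
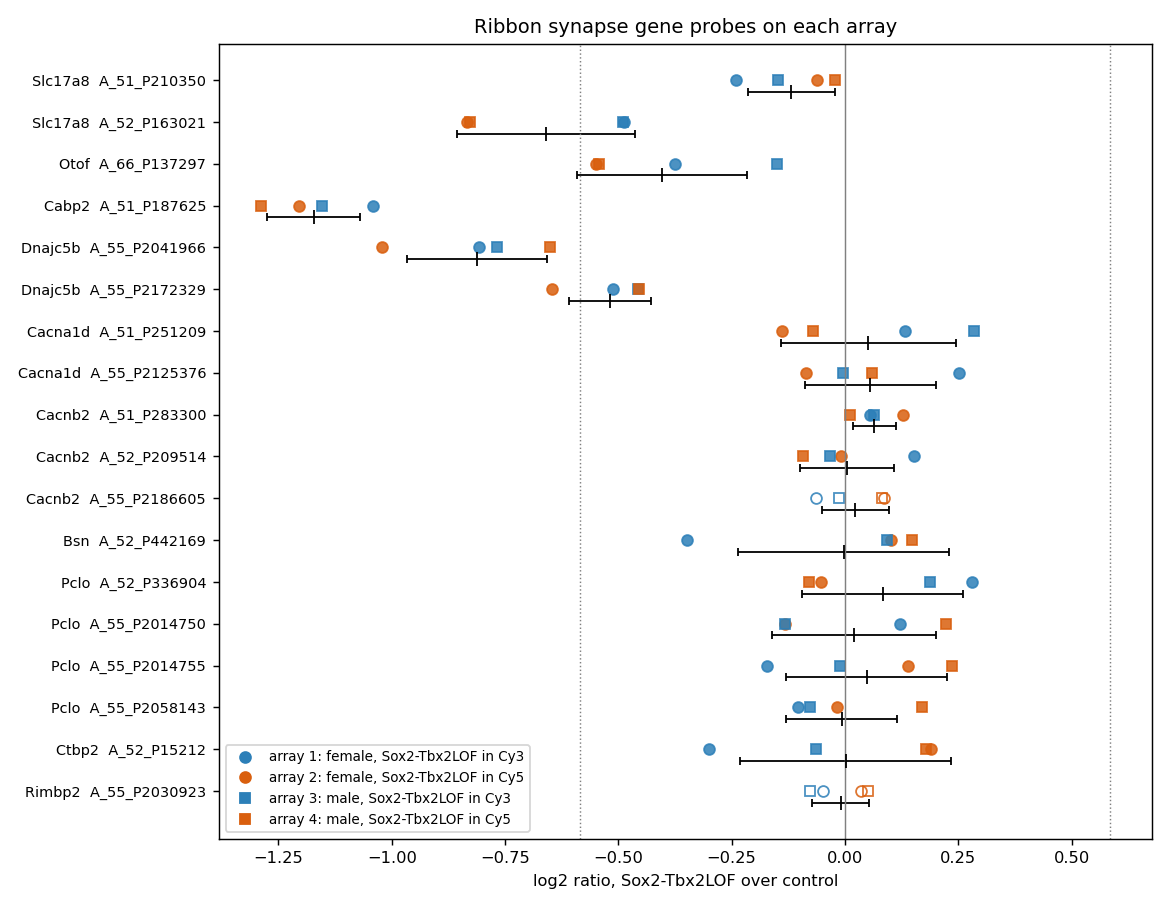
Log2 ratio of Sox2-Tbx2LOF over control (horizontal axis) for each of the 18 probes (rows), with 1 point for each array. Circles are female and squares male arrays, blue has the Sox2-Tbx2LOF pool in Cy3 and orange in Cy5, black bars give the mean ± SD over the 4 arrays, hollow points are probes that were not tested, and dotted lines mark 1.5-fold. Cabp2 lies beyond 1.5-fold on all 4 arrays and the first Dnajc5b probe likewise, while the channel and scaffold genes scatter on both sides of 0.

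Slc17a8 codes for VGLUT3, the transporter that loads glutamate into the vesicles of IHCs. At the probe starting at base 3527, Sox2-Tbx2LOF pools had log2 levels of 7.90, 7.92, 8.15 and 7.97 on arrays 1 to 4, and control pools had 8.39, 8.75, 8.65 and 8.80. Every control pool was above every Sox2-Tbx2LOF pool. The ratios were −0.49, −0.83, −0.49 and −0.83, which gave a mean of −0.66 ± 0.20 (SD, n = 4), or 1.58-fold lower (limma adjusted p 2.85e-04). These ratios fell into pairs by dye, at −0.49 with the Sox2-Tbx2LOF pool in Cy3 and −0.83 with it in Cy5, and were lower than 0 in both orientations. A dye pattern ran through all tested probes: r of the ratios was 0.44 between arrays 1 and 3 and 0.46 between arrays 2 and 4. Between arrays of opposite orientation r lay from −0.28 to −0.09. The decrease ranked 28th by size among the 28079 tested probes.

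The other Slc17a8 probe, starting at base 1608, differed far less between the genotypes. Its log2 levels were 7.51, 7.62, 7.57 and 7.66 in Sox2-Tbx2LOF pools and 7.75, 7.68, 7.72 and 7.68 in control pools. The groups did not overlap, yet the highest Sox2-Tbx2LOF pool and the lowest control pool were only hundredths apart. Its mean log2 ratio was −0.12 ± 0.10 (SD, n = 4), lower on 4 of 4 arrays, which did not pass (limma adjusted p 0.619, 95% interval −0.23 to −0.010 before adjustment). Array by array, the downstream probe was lower than the upstream one by −0.25, −0.77, −0.34 and −0.80 on the log2 scale. This difference between the probes had a mean of −0.54 ± 0.29 (SD, n = 4) and the same sign on all 4 arrays, for which the exact two-sided sign-flip test gives p 0.125, the smallest that 4 arrays allow. The difference split by dye, being smaller with the Sox2-Tbx2LOF pool in Cy3 and larger in Cy5. Whether it comes from the stretch of transcript, the response of the probes or their background was not tested.

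Dnajc5b codes for a relative of cysteine string protein, a family of chaperones that sit on synaptic vesicles. At the probe starting at base 766, Sox2-Tbx2LOF pools had log2 levels of 6.63, 6.58, 6.55 and 6.64, and control pools had 7.44, 7.60, 7.31 and 7.29. All control pools were above all Sox2-Tbx2LOF pools, which themselves lay within 0.10 of each other. The ratios of −0.81, −1.02, −0.77 and −0.65 had a mean of −0.81 ± 0.15 (SD, n = 4), or 1.76-fold lower (limma adjusted p 5.99e-04). The signal was well above background on 4 control arrays and on 2 Sox2-Tbx2LOF arrays, so the lower group was close to the limit of what the array reads.

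The second Dnajc5b probe, starting at base 895 and holding AATAAA, gave the same direction at a dimmer signal. Log2 levels were 6.18, 6.15, 6.13 and 6.22 in Sox2-Tbx2LOF pools and 6.69, 6.80, 6.58 and 6.67 in control pools, and the groups did not overlap. Sox2-Tbx2LOF pools were well above background on 0 arrays and control pools on 3. With Sox2-Tbx2LOF values raised to the lowest signal that counts as well above background on their array, the difference was 1.20-fold. Probes that are not well above background can exceed that signal, so this is not a lower bound. The measured mean log2 ratio was −0.52 ± 0.09 (SD, n = 4, limma adjusted p 0.00221), under the minimum fold. With no Sox2-Tbx2LOF array well above background, the size of this ratio rests on how background is treated, and which of the 2 Dnajc5b probes fell further cannot be read: as reported the first had the larger decrease, and with the scanner's own log ratio the second did, at −2.65 against −1.77.

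Cabp2 codes for a calcium-binding protein of the calmodulin-like CaBP family, which keeps the calcium channels of IHCs from inactivating. It had the largest decrease of the 18 probes. Log2 levels were 7.48, 7.66, 7.79 and 7.70 in Sox2-Tbx2LOF pools and 8.52, 8.86, 8.94 and 8.99 in control pools. The highest Sox2-Tbx2LOF pool stayed below the lowest control pool by more than the spread within either group, and the female pools of array 1 were the lowest of their genotype on both sides. Ratios of −1.04, −1.21, −1.15 and −1.29 had a mean of −1.17 ± 0.10 (SD, n = 4), or 2.25-fold lower (limma adjusted p 1.02e-05). The decrease ranked 8th by size among the 28079 tested probes. It was similar in both dye orientations, at −1.10 with the Sox2-Tbx2LOF pool in Cy3 and −1.25 with it in Cy5.

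Otof codes for otoferlin, the membrane protein that senses calcium for vesicle fusion and resupply in hair cells. Sox2-Tbx2LOF pools had log2 levels of 12.51, 12.68, 12.95 and 12.69, and control pools had 12.88, 13.23, 13.10 and 13.24. Each Sox2-Tbx2LOF pool was below the control pool on its own array, but the male Sox2-Tbx2LOF pool of array 3 was above the female control pool of array 1, so the groups overlapped. Ratios were −0.38, −0.55, −0.15 and −0.54, with a mean of −0.40 ± 0.19 (SD, n = 4), or 1.32-fold lower. That passed the adjusted p (0.00984, limma) but not the minimum fold. It passed no longer when the channels were compared without pairing (adjusted p 0.261), when the dye term was left out (adjusted p 0.125), or in the deposited value table (adjusted p 0.249).

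In a bulk extract, fewer cells that express a gene and less of its RNA in each cell cannot be told apart, which holds for all 4 of these genes.

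**Figure D2:**
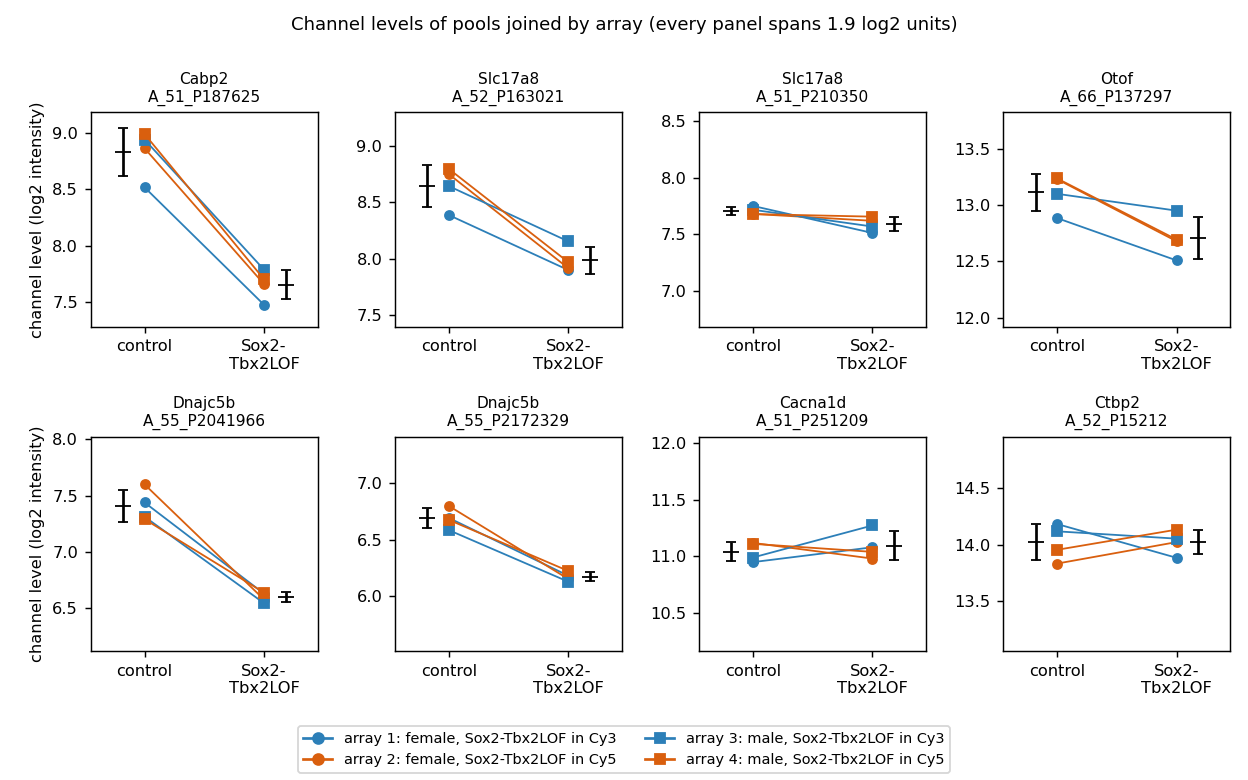
Normalized channel level (log2 intensity, vertical axis) of control and Sox2-Tbx2LOF pools for 8 probes, with pools of the same array joined by a line and the mean ± SD beside each group. Every panel spans the same log2 distance, so slopes can be compared between panels but heights cannot. All 4 lines fall in each of the 6 panels of Cabp2, Slc17a8, Otof and Dnajc5b, least at the upstream Slc17a8 probe, while lines rise and fall for Cacna1d and Ctbp2.

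The calcium channel genes gave small mean log2 ratios, all above 0 as reported (2 turned with an array left out) and none past the test, and all but one of their probes had single arrays on both sides of 0. Cacna1d codes for the pore-forming subunit Cav1.3, which carries most of the calcium current of IHCs, and Cacnb2 for an auxiliary subunit that helps bring the channel to the membrane. For Cacna1d, the probe starting at base 8461 had log2 levels of 11.08, 10.98, 11.27 and 11.04 in Sox2-Tbx2LOF pools and 10.95, 11.12, 10.99 and 11.11 in control pools. Pools of both genotypes were interleaved. Its mean log2 ratio was 0.05 ± 0.19 (SD, n = 4, limma adjusted p 0.9996), and that of the probe starting at base 6975 was 0.06 ± 0.14 with the same adjusted p.

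Cacnb2 has 3 probes. The probe near the 3′ end, starting at base 2321, had log2 ratios of 0.06, 0.13, 0.07 and 0.01. It was the only member probe that was higher on 4 of 4 arrays, yet the groups overlapped in level and the mean of 0.06 ± 0.05 did not pass (SD, n = 4, limma adjusted p 0.9996). The probe starting at base 692 had a mean of 0.0043 ± 0.10, and its target spans 3174 bases of genome, so it crosses an exon junction. The third probe, which lies at the start of a separate listed transcript, was not well above background in any pool and was not tested.

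Among the scaffold genes, Bsn and Pclo code for bassoon and piccolo, the giant proteins that organize the release site, with bassoon anchoring the ribbon. Bsn had log2 levels of 9.95, 9.94, 9.91 and 9.97 in Sox2-Tbx2LOF pools and 10.30, 9.84, 9.82 and 9.82 in control pools. The female control pool of array 1 stood above the other 7 pools, which lay close together. The ratios were therefore −0.35 on array 1 and 0.10, 0.09 and 0.15 on the others, with a mean of −0.0023 ± 0.23 (SD, n = 4, limma adjusted p 0.9996). Without array 1 the mean was 0.11 (limma adjusted p 0.922). Without array 2 the limma estimate, whose dye term weighs both dye orientations equally, was 0.0093. The sign of so small a mean also turned with other normalizations.

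Pclo was read by 4 probes in 2 listed transcript forms. Their mean log2 ratios were 0.08 ± 0.18, 0.02 ± 0.18, 0.05 ± 0.18 and −0.0067 ± 0.12 (SD, n = 4 each), with adjusted p from 0.952 upwards. Each was higher on some arrays and lower on others, and the 6 differences between pairs of Pclo probes changed sign between arrays as well. The probes at the 3′ ends of both forms hold AATAAA.

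Ctbp2 gives rise, from an alternative start, to RIBEYE, the main structural protein of the ribbon, and otherwise to a transcriptional corepressor made in most cells. Its 1 probe starts at base 2056 of the listed transcript, and whether it separates RIBEYE from corepressor RNA was not tested. Log2 levels were 13.88, 14.02, 14.05 and 14.13 in Sox2-Tbx2LOF pools and 14.18, 13.83, 14.12 and 13.95 in control pools, fully interleaved. The ratios of −0.30, 0.19, −0.06 and 0.18 split by dye, lower with the Sox2-Tbx2LOF pool in Cy3 and higher in Cy5, and had a mean of 0.0013 ± 0.23 (SD, n = 4, limma adjusted p 0.9996).

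Rimbp2 codes for a protein that links calcium channels to the release machinery. Its only probe was not well above background in any of the 8 pools, with log2 levels from 6.33 to 6.38 in Sox2-Tbx2LOF pools and from 6.33 to 6.45 in control pools, so no difference could be read for it. For the 10 tested probes of Cacna1d, Cacnb2, Bsn, Pclo and Ctbp2, the 95% intervals of the log2 ratio lay between −0.16 and 0.19, the upper limit being 1.14-fold. Each interval is that of 1 probe under the reported processing, and they are not joint limits. Pclo A_52_P336904, for one, was at 0.08 as reported and at 0.16 with the scanner's own log ratio.

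For a difference in effect between female and male pools, tested with a sex term in limma, the smallest adjusted p of the tested members was 0.9999 and 0 of 16 probes had an unadjusted p under 0.05. For Cabp2 the mean log2 ratio was −1.12 over the 2 female arrays and −1.22 over the 2 male arrays. At the first Dnajc5b probe it was −0.91 in females and −0.71 in males. With 2 arrays of each sex, only large differences could have been seen.

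The wider synaptic machinery was read through 85 other genes in 7 lists by role, each gene taken at its brightest tested probe. Of these, 79 were tested, 18 with a mean below 0 and 61 above, and their median log2 ratio was 0.03. The median of all tested probes was 0.0024, and the share of all tested probes above 0 was not computed. With an adjusted p under 0.05 there was 1 gene, Rab3b, against 0.538% of all tested probes that passed as lower. No gene of the lists passed as higher, against 0.449%. At an unadjusted limma p under 0.05, 2 genes were lower and 2 higher, with no share of all tested probes computed for that threshold.

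Rab3b is a small GTPase of the Rab3 family, which couples vesicles to the release site. It had log2 levels of 10.95, 10.93, 11.12 and 10.94 in Sox2-Tbx2LOF pools and 11.35, 11.37, 11.52 and 11.44 in control pools. The groups did not overlap, and the pools of array 3 were the highest of both genotypes. Ratios of −0.40, −0.44, −0.40 and −0.51 had a mean of −0.44 ± 0.05 (SD, n = 4), or 1.35-fold lower, which passed the adjusted p (0.00321, limma) and not the minimum fold. Its spread between arrays was smaller than that of any of the 5 member probes that passed.

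In the release site scaffold list, which holds 16 genes such as the Rims, Munc13 and liprin families, 12 of 16 tested genes had means above 0 and the next smallest adjusted p after Rab3b was that of Ppfia2, a liprin (0.10 ± 0.11, adjusted p 0.780). Auxiliary and alternative calcium channel subunits had means above 0 for 7 of 7 tested genes at their brightest probes, and none passed. Cacna2d2 was at 0.17 ± 0.30 (adjusted p 0.729) and Cacna2d3 at 0.10 (adjusted p 0.872), while the other Cacna1c probe was at −0.05. Among 10 tested calcium sensors and their partners, Syt1, the calcium sensor of fast neuronal release, had levels of 12.24, 12.19, 12.47 and 12.04 in Sox2-Tbx2LOF pools and 11.92, 11.97, 11.92 and 12.00 in control pools. These groups did not overlap, but the mean log2 ratio of 0.28 ± 0.21 (SD, n = 4) did not pass (limma adjusted p 0.0784).

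The closest relatives of the lowered members gave values near 0. Cabp1 and Cabp5, of the same family as Cabp2, were at −0.02 and 0.05, and Cabp4 was not tested. Dnajc5, the cysteine string protein of neurons, was at 0.07, with its other probes at −0.02, −0.06 and −0.04, and Dnajc5g was not tested. The other vesicular glutamate transporters, Slc17a6 and Slc17a7, were at −0.05 and 0.02, and all of these had adjusted p of 0.9996.

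Of 13 tested genes of membrane fusion, the SNARE gene Stx3 had the smallest adjusted p, followed by Cplx2 at 0.09 (adjusted p 0.874). Stx3 had a mean log2 ratio of −0.17 ± 0.12, lower on 4 of 4 arrays (adjusted p 0.335), and its other probes were at −0.07 and 0.01. Vesicle proteins, chaperones and pumps (16 tested genes, median 0.02) were led by Sv2b at 0.14 ± 0.19 (adjusted p 0.686). Vesicle retrieval (10 tested genes, median 0.0037) was led by Dnm3 at 0.11 (adjusted p 0.799). The 7 glutamate receptor and uptake genes of the receiving side had a median of 0.02, and none of them passed.

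**Figure D3:**
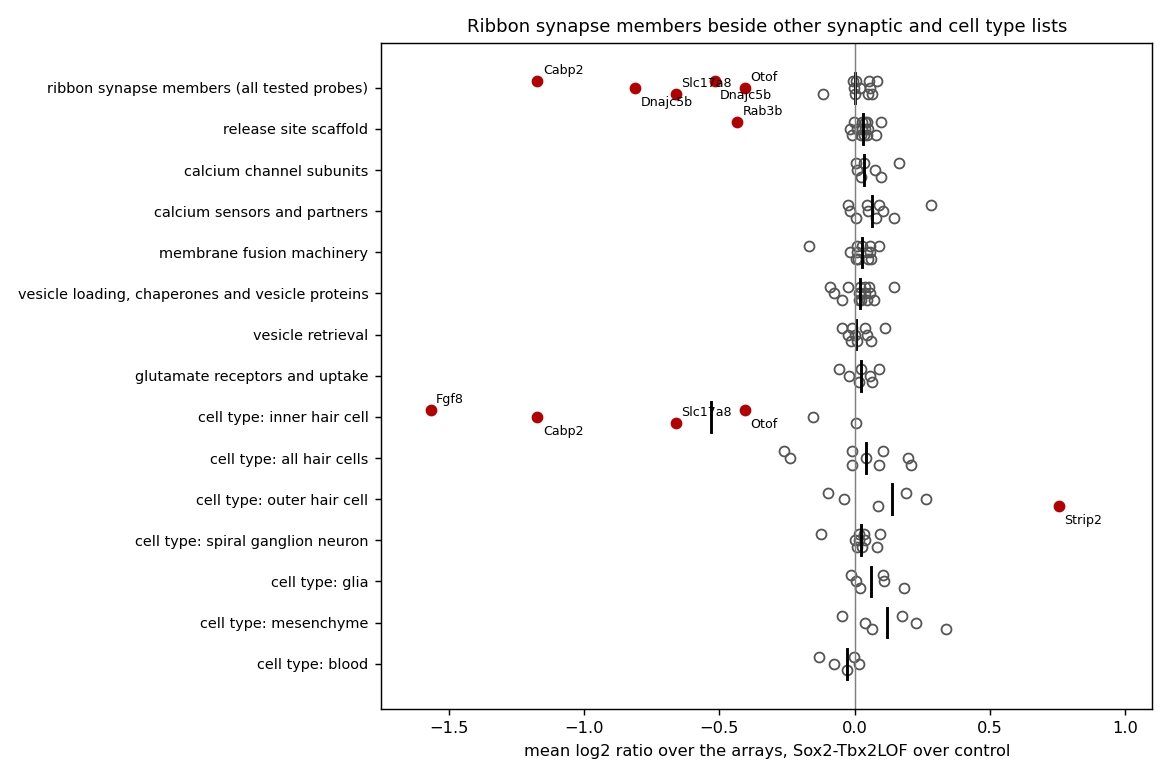
Mean log2 ratio over the 4 arrays (horizontal axis) for the 16 tested member probes (top row), the tested genes of 7 other synaptic lists and those of 7 cell type lists, with a black line at each list's median. Filled red points have a limma adjusted p under 0.05 and are named. Rab3b at −0.44 is the one filled point among the other synaptic lists, and Fgf8 and Strip2 are the filled points of the cell type lists that are not members.

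Cell type markers were read beside these values. Of the 6 genes of the IHC list, 4 passed as lower, against 0.538% of all tested probes. They were Fgf8 at −1.57 ± 0.07 (SD, n = 4, limma adjusted p 2.13e-06) and the members Cabp2, Slc17a8 and Otof, whose own values the list repeats. The paper had already listed Fgf8, Cabp2 and Slc17a8 as lowered in these arrays, so this count is no separate evidence. The calcium buffer gene Calb2 was at 0.0059, and Tbx2 itself had levels of 13.34, 13.28, 13.47 and 13.12 in Sox2-Tbx2LOF pools against 13.40, 13.53, 13.49 and 13.41 in control pools. That gave Tbx2 a log2 ratio of −0.15 ± 0.14 (SD, n = 4, adjusted p 0.313), and whether its probe lies in the part removed by Cre is not given in the sources used here. Of 9 tested markers of all hair cells none passed, and their median was 0.04: Myo7a was at 0.09, Myo6 at 0.10 and Pou4f3 at −0.01. At an unadjusted limma p under 0.05, 2 were lower, Gfi1 at −0.24 and Tmc1 at −0.26, and 2 higher, Pcp4 at 0.20 and Espn at 0.21. The second probes of Tmc1 and Espn were at −0.05 and 0.18. No share of all tested probes was computed for that threshold. The summed level of that list was 45712 to 53251 in Sox2-Tbx2LOF pools and 44322 to 48995 in control pools, and it was not tested what part hair cell content has in the synapse gene values.

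In the outer hair cell list, Strip2 was called higher at 0.75 ± 0.26 (SD, n = 4, limma adjusted p 0.00218). The call was lost when channels were compared without pairing (adjusted p 0.0681) and in the deposited value table (adjusted p 0.354). A second Strip2 probe did not pass, with 0.12, Ikzf2 was at −0.04, and the motor protein gene Slc26a5 was not well above background in any pool. The 6 tested genes of that list had summed levels of 12586 to 14575 in Sox2-Tbx2LOF pools and 11610 to 12175 in control pools. Neurons also make Bsn, Pclo, Ctbp2, Cacna1d and most genes of the 7 synaptic lists, and 10 neuronal markers were tested. None passed, also at an unadjusted p, the median was 0.02, and Tubb3 was at 0.03 and Nefl at 0.02, with summed levels of 146784 to 151816 in Sox2-Tbx2LOF pools and 143894 to 147486 in control pools. The spiral ganglia had been removed at dissection, and how much of each scaffold or channel signal came from neurons was not tested. No tested gene of the glia (6 tested), mesenchyme (6) or blood (5) lists passed either. The mesenchyme list had the highest median of these at 0.12, with 3 genes higher at an unadjusted p under 0.05, again without a share of all tested probes beside it.

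Promoter sequence was available for 8 of the 10 members, at 13 listed starts, and was searched for the core letters of a T-box site, GGTGTG, and for the longer AGGTGTGA, on both strands of the 250 bases before each start (RefSeq, build GRCm38.p6). The longer motif contains the core, so the searches overlap. The core was present in 1 of 13 member windows, against 16.3% of 32851 windows of all genes, and the longer motif in 0 of 13, against 1.12%. That one window precedes a start of Slc17a8, at chr10:89621250-89621499 on the minus strand, and is shown with the core in capitals, 155 bases before the start. Beside it stands a Cabp2 window at chr19:4083269-4083518, on the plus strand, which has no match, since Cabp2 had the largest decrease.
Slc17a8 window: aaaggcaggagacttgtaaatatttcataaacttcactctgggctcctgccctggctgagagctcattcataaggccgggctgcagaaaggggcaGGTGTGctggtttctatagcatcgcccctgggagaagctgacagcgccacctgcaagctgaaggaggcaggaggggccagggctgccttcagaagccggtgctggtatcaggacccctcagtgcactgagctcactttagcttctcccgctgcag
Cabp2 window: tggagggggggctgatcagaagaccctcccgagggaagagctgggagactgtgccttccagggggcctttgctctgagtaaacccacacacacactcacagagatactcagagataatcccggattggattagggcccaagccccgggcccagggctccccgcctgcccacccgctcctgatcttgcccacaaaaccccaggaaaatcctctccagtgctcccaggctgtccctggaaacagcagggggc
A match is a match of letters only. Binding of TBX2 was not measured.

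The 4 lowered genes kept their direction under every one of 13 other ways of processing the arrays. Cabp2, the downstream Slc17a8 probe and the first Dnajc5b probe were called in 12 of these, the exception being the deposited value table. Log2 ratios reached from −1.56 to −1.14 for Cabp2 and from −0.86 to −0.64 for that Slc17a8 probe. The dim Dnajc5b probes moved most, from −1.77 to −0.72 for the first and from −2.65 to −0.03 for the second. Otof stayed between −0.46 and −0.35 and passed the adjusted p in 10 of 13.

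**Figure D4:**
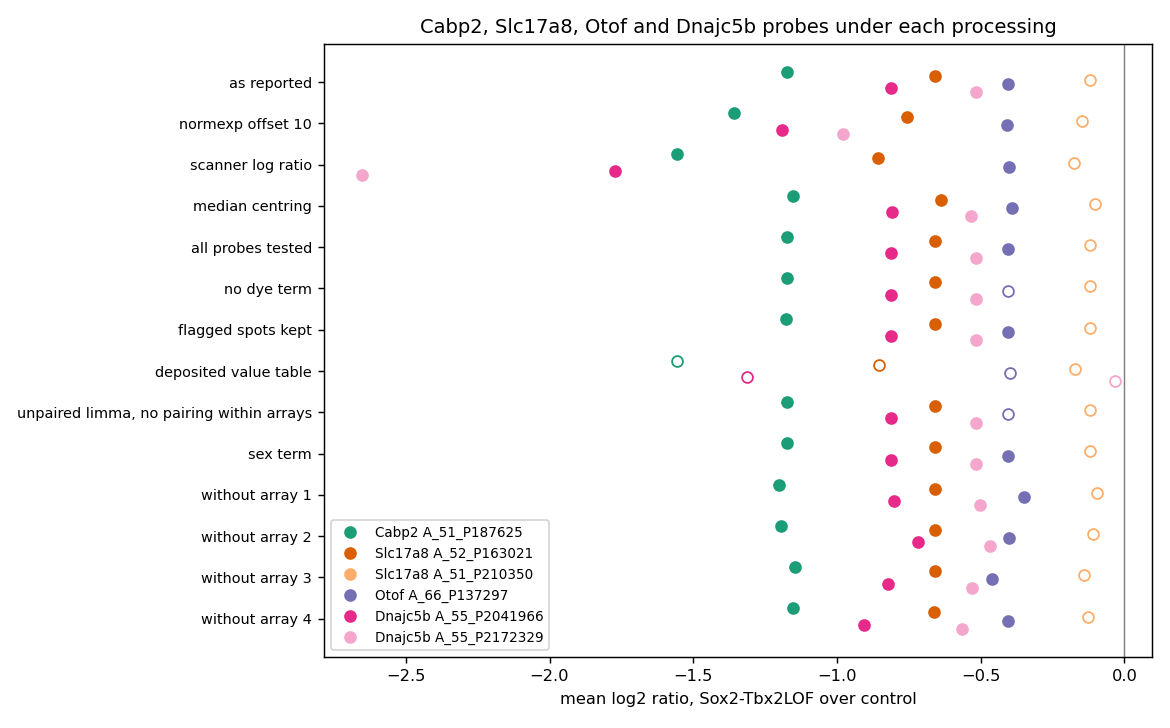
Mean log2 ratio of Sox2-Tbx2LOF over control (horizontal axis) for the 6 probes of Cabp2, Slc17a8, Otof and Dnajc5b as reported (top row) and under 13 other settings. Where an array was left out, points are limma estimates with the dye term and not plain means. Filled points have a limma adjusted p under 0.05. Filled points are absent only from the deposited value table, and the second Dnajc5b probe runs from −2.65 with the scanner's own log ratio to −0.03 in that table.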

How the data were processed

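The authors hybridized labelled RNA to Agilent whole mouse genome arrays and scanned them, and the deposited files hold Feature Extraction 10.7.3.1 output: spot intensity and background per channel, a log10 ratio, a mask score and other spot flags. The series' deposited value table holds a score that reads as a signed fold change per array, never between −1 and 1, and was turned into log2 ratios here. Their median is 0, how they were normalized is not given in the sources used here, and their direction was found by setting them against the scanner ratios (r from 0.648 to 0.696). From the intensities, background was corrected with normexp (offset 50) and ratios were loess-normalized within arrays in R 4.3.3 with limma 3.58.1. Flagged spots were left out (3.23% to 3.56%), no spot was saturated, and the 4 spots of a probe were averaged. Channel levels were quantile-normalized in average brightness. limma was fitted to the ratios of all 28079 tested probes with a dye term, with Benjamini-Hochberg adjustment over all of them. The study compared genotypes without pairing, which was run as an alternative. SAM was not run. All arrays share 1 slide and 1 scan, and their number limits the precision. The labels do not name separate litters, so p-values measure the spread between pools. The fit was tested on simulated data. Gene names are those of the array files. Named were all members, other synaptic genes with an adjusted p under 0.05 or up to 2 of a list with the smallest, and fixed cell type markers. Members and lists were chosen with earlier results of these data known. No column was left unmapped. Alternatives were another offset, the scanner ratio, median centring, all probes, no pairing, no dye term, a sex term, flagged spots kept, the value table, and each array left out.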

Additional observations from a re-analysis of the deposited data

Results flagged for a closer look

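The log2 ratio of Bsn on array 1, −0.35, stood apart from the 3 other arrays, with a gap to its nearest neighbour that was 0.891 of the whole range, above the 95% critical value of Dixon's test. Chance marks about 1 in 20 groups of 4 in this way, and 16 probes were examined. The 4 spots of this probe on array 1 differed by only 0.04 (SD, log2), and the Sox2-Tbx2LOF level there was like that of the other arrays, while the control level was the highest of the 4 control pools.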

How the results depend on the processing

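In the deposited value table, 0 synapse gene probes were called lower (3 as reported) and 0 had an adjusted p under 0.05 (5 as reported), where 2 of all probes were called. Cabp2 was at −1.56 (adjusted p 0.0579), Slc17a8 at −0.85 (0.143) and Dnajc5b at −1.31 (0.278) there, and the cause was not tested. Of the other synaptic genes 0 passed there and 1 to 2 with 1 array left out, and of cell type genes that are not members 0 passed there and 1 without pairing, where Strip2 was lost (2 as reported). Rab3b passed in 12 of 13 settings, from −0.45 to −0.41. Leaving out an array kept 3 probes called and 5 passing. Without pairing (no replicate block), and likewise without the dye term, 3 were called and 4 passed. The second Dnajc5b probe was called with offset 10 (−0.98) and with the scanner ratio (−2.65), both of which compress dim signals less. Signs near 0 turned. Values given for 1 array left out are limma estimates with the dye term and can differ from plain means of the remaining arrays. Bsn was at 0.020 with the scanner ratio, 0.023 with median centring, 0.020 in the value table and −0.11 to 0.11 with 1 array left out. Pclo A_55_P2058143 was at 0.0100, 0.048 and −0.053 to 0.040 under the last 3, Ctbp2 at −0.0021, −6.71e-04 and −0.057 to 0.060, and Pou4f3 at 0.016, 0.0066 and −0.039 to 0.017, with 0.0041 from the scanner ratio. With 1 array left out, Cacna1d A_55_P2125376 ran from −0.0082 to 0.12, Cacnb2 A_52_P209514 from −0.042 to 0.051 and Pclo A_55_P2014750 from −0.069 to 0.11. The sex term could not be fitted with an array left out. Probes at the edge of background, both of Dnajc5b among them, have ratios that depend most on how background is treated.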
